A study of Mus musculus with 14 samples.

Results

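Matrix metalloproteinases (MMPs) and their inhibitors (TIMPs) were followed in primary bone marrow-derived macrophages (pBMDMs) exposed for 24 h to supernatants of dying or living fibroblasts. The 10 genes were the rows of the count table named Mmp2, Mmp8, Mmp9, Mmp12, Mmp13, Mmp14, Mmp19, Timp1, Timp2 and Timp3, out of 55414 genes in all. All 10 were among the 12851 genes tested. The pBMDMs came from wildtype C57BL/6N mice and were differentiated with M-CSF. The supernatants came from Pfa1 MEFs, mouse embryonic fibroblasts in which 4-hydroxytamoxifen (4OHT) deletes Gpx4, the enzyme that detoxifies lipid peroxides. The 5 groups were ctrl (supernatant of untreated MEFs, n = 3), 4OHT (supernatant of MEFs dying by ferroptosis, n = 3), 4OHT+Fer1 (4OHT together with the ferroptosis inhibitor Ferrostatin-1, n = 3), Fer1 (Ferrostatin-1 alone, n = 3) and medium (fresh medium that had held no MEFs, n = 2). All MEF supernatants derive from 1 cell line, and whether 4OHT or Ferrostatin-1 carried over into the pBMDM culture cannot be told apart from what the MEFs released. RNA was read from the 3′ end of transcripts, and levels are given as CPM, a gene's count scaled to a common library total after TMM normalisation.

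MMPs are zinc-dependent endopeptidases that are made as inactive proenzymes and cleave components of the extracellular matrix, cytokines and other proteases once their propeptide is removed. Macrophages are a main source of several of them in inflamed and remodelling tissue, where MMP12, the macrophage elastase, is the most characteristic. TIMPs bind the active site of MMPs in a tight complex, and TIMP2 also takes part in the activation of pro-MMP2 on the cell surface together with MMP14. Many MMP genes respond to AP-1 factors, whose site reads TGAGTCA on one strand and TGACTCA on the other.

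Mmp13, Mmp12 and Mmp8 lie in this order in the MMP cluster of mouse chromosome 9 (GRCm38, plus strand), at chr9:7272514-7283331, chr9:7344381-7369499 and chr9:7558456-7568485. The other members lie apart, Mmp2 at chr8:92827291-92853420, Mmp9 at chr2:164940780-164955850, Mmp14 at chr14:54431612-54445364, Mmp19 at chr10:128790910-128800824, Timp1 at chrX:20870166-20874735, Timp2 at chr11:118301069-118355740 on the minus strand and Timp3 at chr10:86300372-86349506. RefSeq promoter windows (GRCm38.p6, 250 bases before to 50 after the start site) were at hand for 7 of the 10 genes, in 8 windows. The full AP-1 site was found in 2 of the 8 windows, those of Mmp13 and of the downstream start of Mmp12, against 5.2% of 32851 windows of all genes. The AP-1 site began 35 bases before the start site in Mmp13 and 44 bases before it in Mmp12. The TATA motif TATAAA, searched on both strands and free of overlap with the AP-1 site, was held by 13.6% of all windows and by 3 of the 8 here, those 2 and the window of Mmp8. Counted in bases before the start site, it began at 16 in Mmp13 and at 3 in Mmp8, there as TTTATA on the other strand. In Mmp12 it began at -4, that is after the start site. The window of Timp3 is shown beside those of Mmp13 and Mmp12 because Timp3 was the member called between 4OHT and ctrl, and it held neither motif. Capitals mark the AP-1 and TATA letters in the windows below, which read 5′ to 3′ on the plus strand at chr9:7272264-7272563, chr9:7347124-7347423 and chr10:86300162-86300461.
Mmp13: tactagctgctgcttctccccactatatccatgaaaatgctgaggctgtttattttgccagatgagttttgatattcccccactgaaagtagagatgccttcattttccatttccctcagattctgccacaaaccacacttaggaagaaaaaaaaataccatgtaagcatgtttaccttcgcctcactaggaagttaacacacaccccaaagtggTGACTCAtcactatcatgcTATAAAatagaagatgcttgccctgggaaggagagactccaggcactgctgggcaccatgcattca
Mmp12: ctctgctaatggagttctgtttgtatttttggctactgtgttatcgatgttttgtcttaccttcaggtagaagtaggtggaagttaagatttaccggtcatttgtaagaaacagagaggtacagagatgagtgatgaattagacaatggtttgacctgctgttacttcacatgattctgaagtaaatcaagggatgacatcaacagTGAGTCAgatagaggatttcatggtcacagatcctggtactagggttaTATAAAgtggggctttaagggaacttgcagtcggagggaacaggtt
Timp3: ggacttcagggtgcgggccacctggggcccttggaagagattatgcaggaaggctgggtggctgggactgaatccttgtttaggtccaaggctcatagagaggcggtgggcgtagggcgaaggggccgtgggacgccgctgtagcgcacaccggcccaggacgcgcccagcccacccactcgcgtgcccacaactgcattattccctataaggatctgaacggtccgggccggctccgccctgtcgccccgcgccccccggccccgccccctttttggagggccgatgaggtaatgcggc

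Between libraries, replicate 3 stood apart for these genes before any group was compared. Ctrl replicate 3 was 4.45-fold above the mean of ctrl replicates 1 and 2 for Mmp8, 4.84-fold for Mmp12, 4.33-fold for Mmp14 and 2.23-fold for Mmp13, and 0.611-fold for Timp2. Over all genes tested, 18.2% differed by more than 2-fold between ctrl replicate 3 and that mean, and 16.7% did so in 4OHT. Library totals ran from 7823051 to 11052352 counts, so that 3 counts equal 0.272 to 0.381 CPM. The 8 macrophage markers summed to 28000, 19100 and 23500 CPM in ctrl and to 44000, 28900 and 28400 CPM in 4OHT, higher in 4OHT in 3 of 3 replicates, and to 21800 to 34400 CPM in the other groups. None of the 8 was called between 4OHT and ctrl by edgeR or DESeq2, 4 were higher at an unadjusted p under 0.05, and their part in the differences below was not tested. Markers of T, B and NK cells were at 0. A gene was called at an adjusted p under 0.05 in edgeR's quasi-likelihood test, fitted over all 14 libraries with the replicate number as a block, and a log2 fold change above 1 in size.

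The collagenase Mmp8, known best from neutrophil granules, stood high in 2 of the 3 4OHT libraries. It was at 19.4, 22.2 and 92.6 CPM in ctrl, at 83.3, 85.0 and 40.0 CPM in 4OHT and at 19.3, 13.2 and 51.8 CPM in 4OHT+Fer1, in the order of the replicate numbers. Fer1 libraries held 18.7, 19.3 and 45.6 CPM and medium libraries 15.0 and 16.6 CPM. Replicates 1 and 2 of 4OHT thus lay above every other library except ctrl replicate 3, while replicate 3 was the lowest 4OHT library and the highest in each of the other groups that had one. Within replicate numbers, 4OHT exceeded ctrl by 2.09 and 1.93 on the log2 scale in replicates 1 and 2 and differed by -1.21 in replicate 3. The fitted log2 fold change was 1.16 (SE 0.49, adjusted p = 0.405, edgeR), and without replicate 3 it was 2.00 (adjusted p = 0.00266, edgeR). It fell to 0.65 without replicate 1 and to 0.66 without replicate 2. Against 4OHT+Fer1 it was 1.74 (SE 0.50, adjusted p = 0.144, edgeR), and 2.39 without replicate 3 (adjusted p = 0.00107, edgeR). Here it fell to 1.46 without replicate 1 and to 1.19 without replicate 2. Against medium it was 1.97 (SE 0.57, adjusted p = 0.0815, edgeR). DESeq2 called Mmp8 both against 4OHT+Fer1 (1.75, adjusted p = 0.00686) and against medium (1.96, adjusted p = 0.00523). Group means ran 4OHT, ctrl, 4OHT+Fer1, Fer1, medium, and of the neighbours in this order only Fer1 and medium did not overlap.

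Neutrophil markers other than Mmp8 did not follow this order. Summed over the list they were at 39.5 and 57.0 CPM in medium, where Mmp8 was lowest, and at 3.53 to 28.8 CPM in the other 12 libraries. In the replicate 3 libraries they were at 3.53 CPM in ctrl, 4.3 CPM in 4OHT, 5.53 CPM in 4OHT+Fer1 and 4.74 CPM in Fer1, the lowest in each group. In 4OHT replicates 1 and 2 they were at 28.8 and 24.5 CPM, against 17.3 and 18.8 CPM in ctrl, and the part of this in the Mmp8 difference was not tested. Elane, Ly6g and Mpo, which define granulocytes and their precursors, had 0 to 5 counts over all libraries. S100a8 and S100a9 made up most of the neutrophil sum. Cebpe, on the same list, was lower in every 4OHT and medium library than in every ctrl library.

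**Figure D1:**
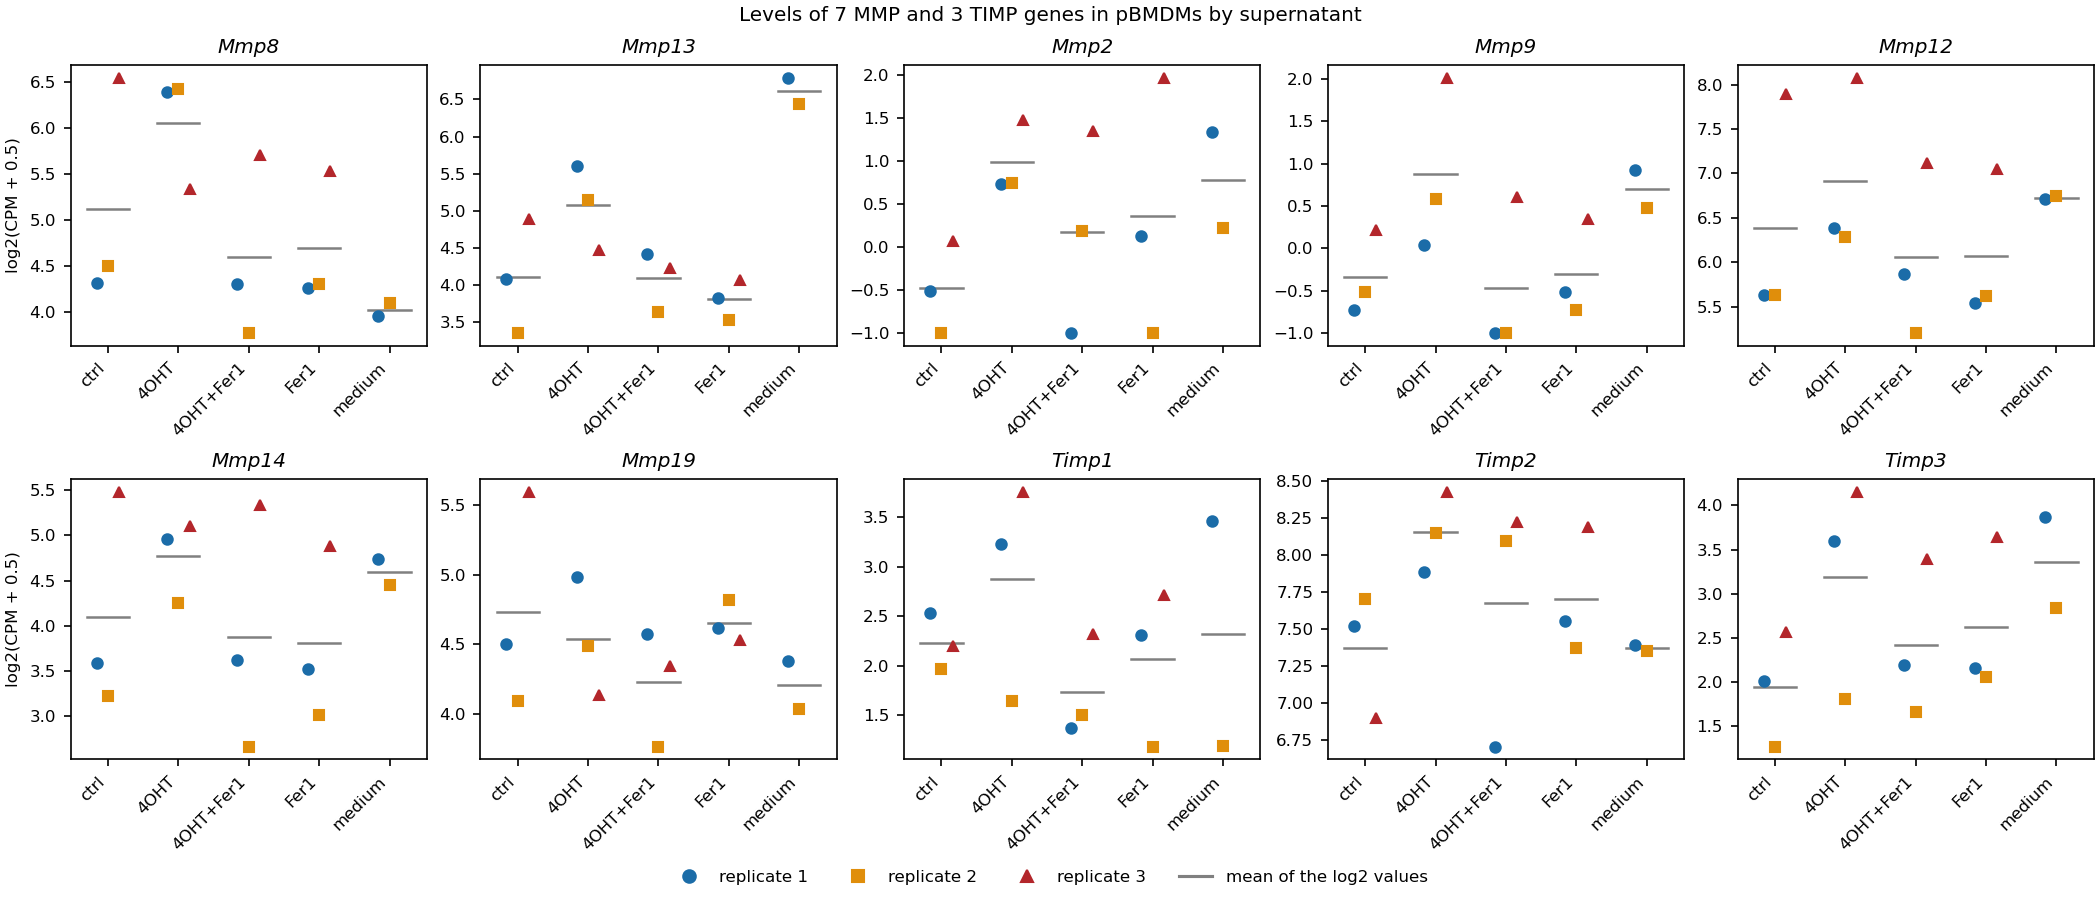
Levels of the 10 genes in each library, as log2(CPM + 0.5), by supernatant group on the x axis; colours and shapes mark the replicate number and grey bars the mean of the log2 values. Mmp8 is high in 4OHT replicates 1 and 2 and in ctrl replicate 3, while both medium libraries lie above all others for Mmp13.

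The collagenase Mmp13 had its highest levels in fresh medium. Medium libraries held 110 and 86.4 CPM, and 4OHT libraries 48.3, 35.0 and 21.6 CPM. The ctrl libraries were at 16.4, 9.75 and 29.2 CPM, those of 4OHT+Fer1 at 20.8, 12.0 and 18.3 CPM, and those of Fer1 at 13.7, 11.1 and 16.3 CPM. Medium did not overlap with any other group, and 4OHT did not overlap with 4OHT+Fer1 or Fer1, whereas ctrl replicate 3 lay above 4OHT replicate 3. Mmp13 was higher in medium than in ctrl by 2.56 on the log2 scale (SE 0.37, adjusted p = 0.000871, edgeR) and lower in 4OHT than in medium by a log2 fold change of -1.55 (SE 0.35, adjusted p = 0.0257, edgeR). The second call held in 17 of 23 alternative fits. It was lost without the block (adjusted p = 0.105), without replicate 1 (0.367) or replicate 2 (0.413), without 4OHT replicate 1 (0.0608) and without medium replicate 1 (0.172) or 2 (0.223). Between 4OHT and ctrl the log2 fold change was 1.01 (SE 0.33, adjusted p = 0.214, edgeR), made of 1.54, 1.82 and -0.43 in replicates 1, 2 and 3. It was 1.68 without replicate 3 (adjusted p = 0.0032, edgeR) and 1.47 without the single library ctrl replicate 3 (adjusted p = 0.0249, edgeR). It fell to 0.73 without replicate 1 and to 0.61 without replicate 2. Between 4OHT and 4OHT+Fer1 it was 1.09 (SE 0.32, adjusted p = 0.159, edgeR), positive in 3 of 3 replicates. The call between medium and ctrl held in 21 of 23 alternative fits and was lost without replicate 1 (2.51, adjusted p = 0.0701, edgeR) and without replicate 2 (2.22, adjusted p = 0.105, edgeR), each of which leaves 1 medium library.

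The gelatinases Mmp2 and Mmp9 were barely detected, so their fitted fold changes rest on few counts. Mmp9 had 1, 2 and 6 counts in ctrl, 5, 11 and 28 in 4OHT, 0, 0 and 10 in 4OHT+Fer1, 2, 1 and 7 in Fer1 and 11 and 8 in medium. It passed the filter on low counts through 4OHT replicate 3 and medium replicate 1 only, the number of libraries needed, so a difference in favour of these groups was built into its being tested. In CPM the medium libraries, at 1.40 and 0.890, lay above the ctrl libraries, at 0.101 to 0.663, and 4OHT libraries spanned 0.527 to 3.54. Mmp9 was called higher in medium than in ctrl (log2 fold change 3.12, SE 0.82, adjusted p = 0.0302, edgeR). Without ctrl replicate 3 this became 2.81 (adjusted p = 0.0829, edgeR), and leaving out any 1 of the ctrl or medium libraries lost the call. Between 4OHT and ctrl the log2 fold change was 2.39 (SE 0.72, adjusted p = 0.168, edgeR) and between 4OHT and 4OHT+Fer1 2.60 (SE 0.72, adjusted p = 0.123, edgeR), higher in 3 of 3 replicates in both.

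Mmp2, made mostly by mesenchymal cells in tissues, had 2, 0 and 5 counts in ctrl and 11, 13 and 18 in 4OHT. The 4OHT libraries, at 1.16, 1.18 and 2.28 CPM, all lay above ctrl, whose highest library was at 0.552 CPM. The 4OHT+Fer1 group (0, 6 and 20 counts) and the Fer1 group (6, 0 and 31 counts) overlapped with both, while medium (16 and 6 counts, at 2.03 and 0.667 CPM) overlapped with 4OHT and lay above ctrl. The log2 fold change between 4OHT and ctrl was 2.97 (SE 1.06, adjusted p = 0.282, edgeR), and that between medium and ctrl 3.50 (SE 1.18, adjusted p = 0.0823, edgeR), which DESeq2 called (3.69, adjusted p = 0.0269). In bulk libraries such as these, fewer cells that express a gene and less RNA per cell cannot be told apart.

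The elastase Mmp12 was at 48.9, 49.0 and 237 CPM in ctrl, at 83.3, 77.2 and 269 CPM in 4OHT and at 57.7, 36.4 and 138 CPM in 4OHT+Fer1. Fer1 libraries were at 46.0, 48.7 and 132 CPM, and medium libraries at 104 and 107 CPM. Replicate 3 was the highest library in each of the 4 groups that had one, and the highest ctrl library was 4.85-fold above the lowest. Within replicate numbers, 4OHT exceeded 4OHT+Fer1 by 0.53, 1.08 and 0.96 and ctrl by 0.77, 0.66 and 0.18 on the log2 scale. The fitted log2 fold change against 4OHT+Fer1 was 0.84 (SE 0.19, adjusted p = 0.0595, edgeR) and that against ctrl 0.51 (SE 0.19, adjusted p = 0.328, edgeR). Against 4OHT+Fer1, the adjusted p ran from 0.00416 to 0.882 over the 23 alternative fits. Mmp12 was higher in medium than in ctrl by 0.92 (SE 0.22, adjusted p = 0.0191, edgeR), under the fold limit.

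Mmp14, the membrane-anchored MMP that activates pro-MMP2 and cleaves fibrillar collagen, was at 11.5, 8.85 and 44.2 CPM in ctrl and at 30.7, 18.5 and 34.0 CPM in 4OHT. It was at 11.8, 5.84 and 39.9 CPM in 4OHT+Fer1, at 11.0, 7.61 and 29.0 CPM in Fer1 and at 26.2 and 21.4 CPM in medium. In replicates 1 and 2 both 4OHT libraries lay above the ctrl, 4OHT+Fer1 and Fer1 libraries, and in replicate 3 the order of 4OHT and ctrl was the opposite. The within-replicate differences between 4OHT and ctrl were 1.39, 1.05 and -0.37, and the fit gave 0.75 (SE 0.31, adjusted p = 0.386, edgeR). Without replicate 3 it gave 1.23 (adjusted p = 0.0293, edgeR), without replicate 1 0.40 and without replicate 2 0.59. Between 4OHT and 4OHT+Fer1 it gave 0.96 (SE 0.31, adjusted p = 0.209, edgeR), and 1.51 without replicate 3 (adjusted p = 0.0141, edgeR). Here it gave 0.71 without replicate 1 and 0.65 without replicate 2. For medium against ctrl the log2 fold change was 1.05 (SE 0.35, adjusted p = 0.0796, edgeR), and DESeq2 called it at 1.06 (adjusted p = 0.0372).

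Mmp19, an MMP that cleaves basement membrane components, differed in order from the other MMPs. It was at 22.2, 16.6 and 47.9 CPM in ctrl, at 31.2, 21.9 and 17.1 CPM in 4OHT and at 13.1 to 27.8 CPM in the other 8 libraries. Its ctrl mean was the highest of the 5 groups, and all neighbouring groups overlapped. The log2 fold change between 4OHT and ctrl was -0.25 (SE 0.34, adjusted p = 0.875, edgeR), the only negative value among the 10 genes, and it was 0.44 without replicate 3. Exons of Mmp19 overlap those of Tmem198b on the opposite strand, which had 1258 counts over the 14 libraries, and whether counting used the strand is not given in the sources used here.

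**Figure D2:**
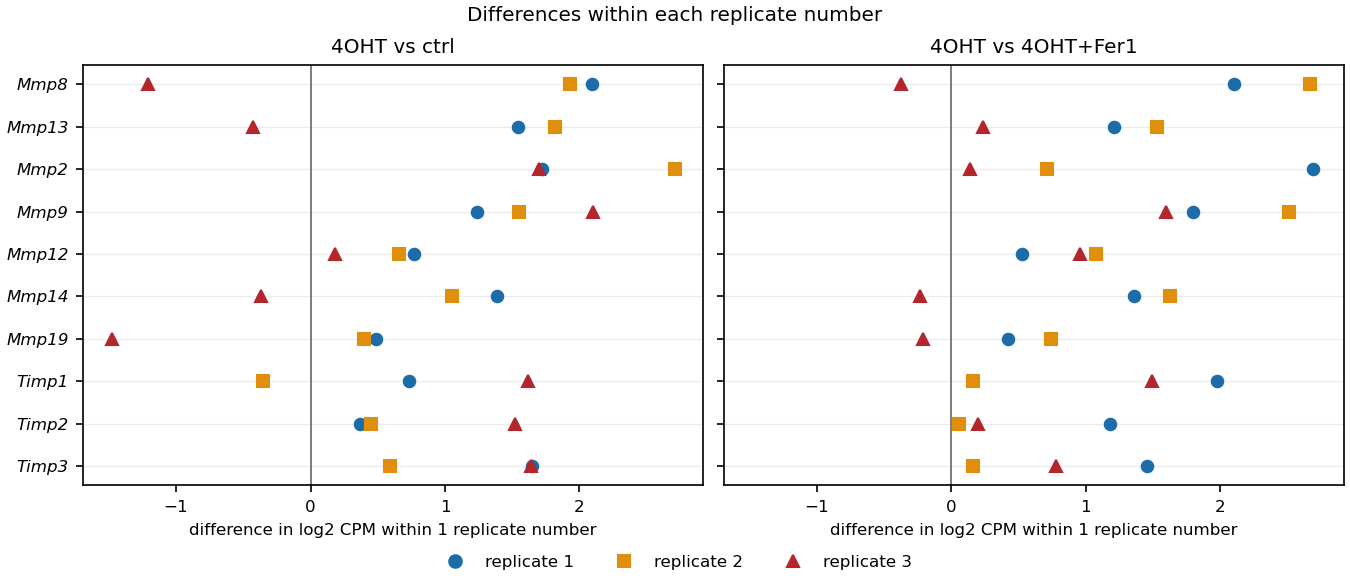
Differences in log2 CPM within each replicate number (x axis) for the 10 genes, 4OHT against ctrl on the left and 4OHT against 4OHT+Fer1 on the right; colours and shapes mark replicates 1 to 3. On the left, Mmp8, Mmp13, Mmp14 and Mmp19 lie above 0 in replicates 1 and 2 and below 0 in replicate 3, Mmp8 at 2.09, 1.93 and -1.21.

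Timp3, the TIMP that binds to the matrix and also inhibits ADAM17, was the only member called between 4OHT and ctrl. It was at 3.55, 1.91 and 5.41 CPM in ctrl and at 11.6, 2.99 and 17.3 CPM in 4OHT. It was at 4.08, 2.66 and 10.0 CPM in 4OHT+Fer1, at 3.97, 3.65 and 12.0 CPM in Fer1 and at 14.1 and 6.67 CPM in medium. Replicate 2 was the lowest library of every group, so 4OHT and ctrl overlapped although 4OHT was higher in 3 of 3 replicates, by 1.65, 0.59 and 1.64 on the log2 scale. Timp3 rose in 4OHT against ctrl by a log2 fold change of 1.43 (SE 0.31, adjusted p = 0.0437, edgeR). Over 23 alternative fits the adjusted p ran from 0.00245 to 0.692 and was under 0.05 in 7, so that the call was close to the threshold. Without ctrl replicate 1 it was 0.149, without 4OHT replicate 1 it was 0.242, and without the replicate block it was 0.692 (edgeR). In medium Timp3 was higher than in ctrl by 2.05 (SE 0.34, adjusted p = 0.00212, edgeR), a call that held in 20 of 23 alternative fits and not without replicate 1 (adjusted p = 0.0671), without replicate 2 (adjusted p = 0.0717) or without the block (adjusted p = 0.341). Against 4OHT+Fer1 the log2 fold change was 0.89 (SE 0.30, adjusted p = 0.231, edgeR), and Fer1 against ctrl gave 0.79 (SE 0.31, unadjusted p = 0.0271 and adjusted p = 1.0, edgeR).

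Markers of fibroblasts, the cells that made the supernatants, were read beside Timp3, which fibroblasts also express. Summed over 12 markers, they were at 54.3, 20.4 and 55.2 CPM in ctrl and at 59.2, 19.1 and 52.3 CPM in 4OHT. They were at 66.3, 16.7 and 104 CPM in 4OHT+Fer1, at 71.3, 22.2 and 129 CPM in Fer1 and at 116 and 38.2 CPM in medium. Replicate 2 was the lowest library of each group here too, as for Timp3, and the sum was higher in 4OHT than in ctrl in replicate 1 and lower in replicates 2 and 3. Col1a1 and Col1a2 made up most of this sum, and single markers differed from it. Prrx1 (4.11, 1.45 and 2.78 CPM in 4OHT, 1.01, 0.804 and 2.43 CPM in ctrl) and Col5a1 were higher in 4OHT in each replicate. Col1a1 and Col3a1 were lower in each, and the other markers did not move the same way in each replicate. None of the 6 markers tested was called between 4OHT and ctrl by edgeR or DESeq2 (1 at an unadjusted p under 0.05), whereas Col1a1, Col1a2 and Prrx1 were called higher in medium than in ctrl. Their part in the Timp3 differences was not tested.

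Timp2, which inhibits MMPs and takes part in pro-MMP2 activation, was at 183, 208 and 119 CPM in ctrl and at 236, 284 and 344 CPM in 4OHT. All 4OHT libraries lay above all ctrl libraries. The fitted log2 fold change was 0.71 (SE 0.32, adjusted p = 0.456, edgeR), with 0.37, 0.45 and 1.52 in replicates 1, 2 and 3. The 4OHT+Fer1 libraries, at 104, 273 and 299 CPM, and the Fer1 libraries, at 188, 165 and 292 CPM, overlapped with both groups, and the medium libraries were at 168 and 163 CPM. Timp1, a TIMP inducible in inflammation, was at 5.27, 3.42 and 4.09 CPM in ctrl and at 8.85, 2.63 and 13.0 CPM in 4OHT. Its 4OHT libraries lay on both sides of the ctrl range, and the log2 fold change was 0.70 (SE 0.43, adjusted p = 0.648, edgeR). Against 4OHT+Fer1, whose libraries were at 2.09, 2.34 and 4.50 CPM, it was 1.27 (SE 0.44, adjusted p = 0.244, edgeR), higher in 3 of 3 replicates. Timp1 was at 4.46, 1.77 and 6.06 CPM in Fer1 and at 10.5 and 1.78 CPM in medium. Timp1 lies inside Syn1 (opposite strand, 304 counts) and Timp3 inside Syn3 (opposite strand, 0 counts).

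**Figure D3:**
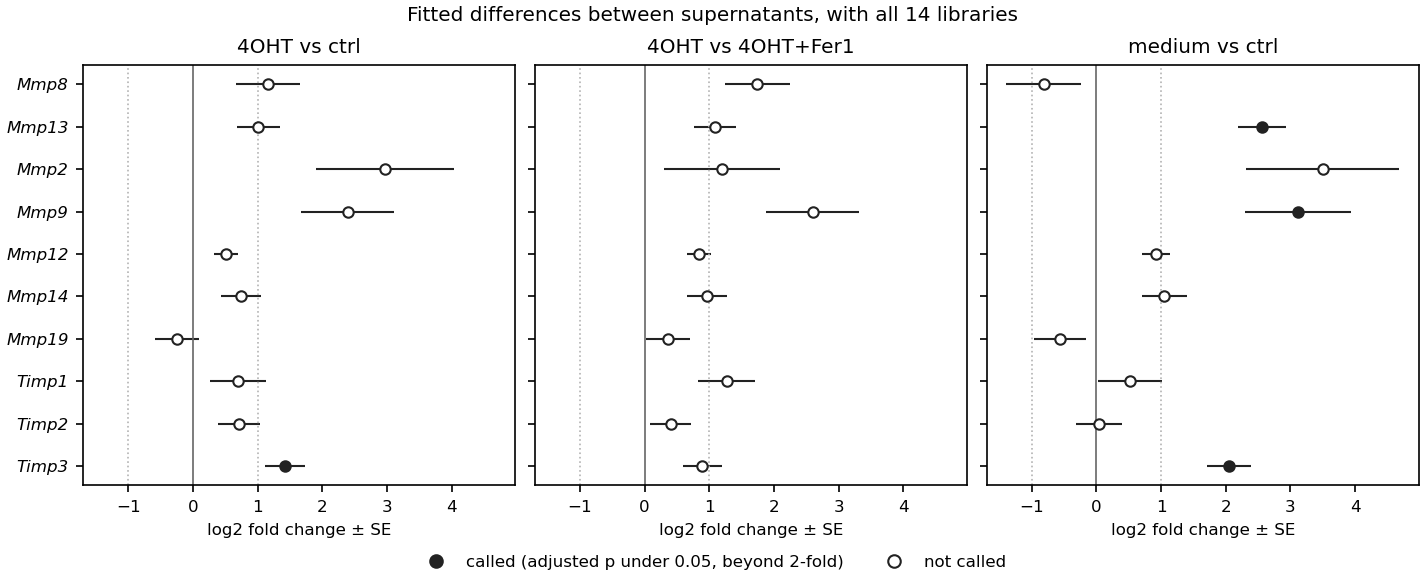
Fitted log2 fold changes (x axis, bars are SE) of the 10 genes with all 14 libraries, for 4OHT against ctrl, 4OHT against 4OHT+Fer1 and medium against ctrl; filled points were called and dotted lines mark a log2 fold change of 1 in size. Timp3 is the only filled point on the left, there is none in the middle, and Mmp9, Mmp13 and Timp3 are filled on the right.

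As a group, 1 of the 10 genes was called between 4OHT and ctrl, where 1.11% of all genes tested were called. The 10 genes were chosen with earlier results of these data known. Their shares and medians here and below are therefore not independent of that choice. At an unadjusted p under 0.05, 8 of 10 were higher in 4OHT, against 4.92% of all genes. Without Mmp9, which was tested only through libraries where it was high, this was 7 of 9, and the median log2 fold change was 0.75. The median log2 fold change was 0.88 for the 10 genes and 0.01 for all genes, with a median of 1.01 for the 7 MMPs and 0.71 for the 3 TIMPs. Groups did not overlap, with 4OHT higher, for Mmp2 and Timp2, that is 2 of 10 against 5.2% of all genes. For Mmp8, Mmp13, Mmp14 and Mmp19, replicate 3 had the opposite sign to replicates 1 and 2. DESeq2 called Timp3 here too.

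Between 4OHT and 4OHT+Fer1, which asks whether blocking ferroptosis in the MEFs changes the response, edgeR called none of the 10 genes and 1.03% of all genes. DESeq2 called 2 of the 10 (Mmp8 and Mmp13), and its share over all genes was not counted. All 10 log2 fold changes were positive, from 0.36 for Mmp19 to 2.60 for Mmp9, with a median of 1.02 against 0.0048 for all genes. At an unadjusted p under 0.05, 7 of 10 were higher in 4OHT, or 6 of 9 without Mmp9, against 5.54% of all genes. Only Mmp13 did not overlap, against 4.4% of all genes. Both comparisons use the same 4OHT libraries, so they are not separate evidence.

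The 4OHT+Fer1 and Fer1 groups, both labelled non-ferroptotic, differ in the 4OHT given to the MEFs. None of the 10 was called by edgeR or DESeq2 (0.0233% of all genes by edgeR). In either direction, 0 of 10 had an unadjusted p under 0.05, against 266 of all 12851 genes tested. The log2 fold changes ran from -0.46 for Mmp19 to 0.30 for Mmp13 with SEs of 0.20 to 0.92. Between Fer1 and ctrl none of the 10 was called by edgeR or DESeq2, and edgeR called 0.0% of all genes. Of the 10, only Timp3 had an unadjusted p under 0.05, against 146 of all 12851 genes tested. The effect of 4OHT without Ferrostatin-1 minus that with it was positive for all 10, with a median of 0.88 against 0.004 for all genes, and none was called by edgeR or DESeq2 (0.0311% of all genes by edgeR). An unadjusted p under 0.05 was reached by 3 of 10, Mmp2 (3.31, SE 1.40), Mmp9 (2.72, SE 1.12) and Timp3 (1.67, SE 0.43), or 2 of 9 without Mmp9, against 6.2% of all genes. Mmp8 stood at 1.22 (SE 0.69, adjusted p = 0.935, edgeR) with all libraries and at 2.25 without replicate 3 (adjusted p = 0.0263, edgeR). It stood at 0.77 without replicate 1 and at 0.55 without replicate 2.

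Fresh medium against ctrl compares medium that had held no MEFs with medium conditioned by living MEFs. What living MEFs released and what they used up from the medium cannot be told apart here. The comparison gave 3 called members, Mmp9, Mmp13 and Timp3, all higher in medium, where 7.79% of all genes were called. At an unadjusted p under 0.05, 6 of 10 were higher in medium, against 12.6% of all genes. Groups did not overlap, with medium higher, for Mmp2, Mmp9, Mmp13 and Timp3, that is 4 of 10 against 17.1% of all genes. Mmp8 was lower without overlap (log2 fold change -0.81, SE 0.58, adjusted p = 0.449, edgeR). The share of all genes lower without overlap was not counted, so nothing is read from this. Without Mmp9, which passed the filter through a medium library, 2 of 9 were called, 5 of 9 were higher at an unadjusted p under 0.05 and 3 of 9 did not overlap with medium higher. Only 2 medium libraries stand behind this comparison, and Ngp and S100a8, of 5 neutrophil markers tested, were called in the same direction. Camp, Ltf and S100a9 were also higher in both medium libraries than in every ctrl library. Cebpe, on the same list, was lower, at 0.381 and 0.445 CPM in medium and 1.42, 1.41 and 0.663 CPM in ctrl. Between 4OHT and medium, 1 of 10 was called, Mmp13 lower in 4OHT, against 3.07% of all genes in either direction. At an unadjusted p under 0.05, 2 of 10 passed, Mmp13 lower and Mmp8 higher in 4OHT, against 15.8% of all genes.

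**Figure D4:**
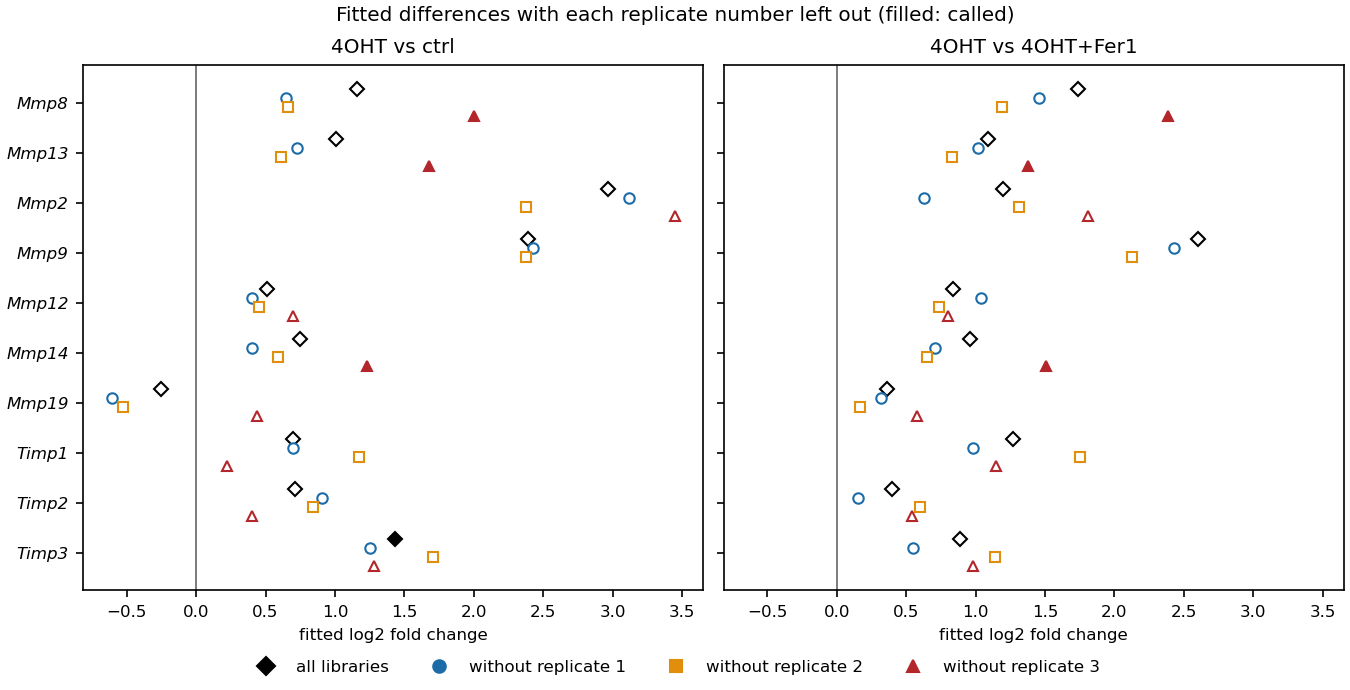
Fitted log2 fold changes (x axis) of the 10 genes with all libraries and with replicate 1, 2 or 3 left out in every group, for 4OHT against ctrl and 4OHT against 4OHT+Fer1; filled symbols were called, and Mmp9 has no value without replicate 3 because it no longer passed the filter on low counts. Mmp8, Mmp13 and Mmp14 are filled only without replicate 3, where Mmp8 stands at 2.00 on the left and 2.39 on the right.

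The RNA level of a protease over that of an inhibitor was read as a log2 ratio within each library, with 0.5 CPM added to both genes. Active enzyme was not measured. The Mmp9 to Timp1 ratio was -3.26, -2.48 and -1.98 in ctrl and -3.19, -1.06 and -1.74 in 4OHT, higher in 4OHT in 3 of 3 replicates. Mmp9 had 1, 2 and 6 counts in ctrl and passed the filter only through 4OHT replicate 3 and medium replicate 1. A higher ratio in 4OHT was therefore partly built in, and no conclusion is drawn from its test. The group means were -2.57 ± 0.65 and -2.00 ± 1.08 (SD, n = 3), a difference of 0.58 with p = 0.4 in an exact two-sided permutation test. This value depended on the amount added, and was 1.25 with 0.1 CPM (p = 0.3) and 0.04 with 2 CPM (p = 1.0) in the same exact test. The Mmp14 to Timp2 ratio was -3.93, -4.48 and -1.43 in ctrl and -2.92, -3.90 and -3.32 in 4OHT, with a difference of -0.10 (p = 1.0, exact two-sided permutation test). The smallest p that 3 against 3 libraries allow is 0.1, and without replicate 3 the second difference turned to 0.79.

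Among the other 16 MMPs and Timp4, 11 of 17 had 0 to 5 counts over all libraries and 3 were tested. Mmp27, at 4.66, 4.62 and 7.73 CPM in ctrl and 0.889 and 1.56 CPM in medium, was called lower in medium than in ctrl (log2 fold change -2.51, SE 0.72, adjusted p = 0.0431, edgeR). Of 12 ADAM and ADAMTS proteases tested, edgeR called 0 between 4OHT and ctrl (2 at an unadjusted p under 0.05, 1 called by DESeq2) and 0 between 4OHT and 4OHT+Fer1 (3 at an unadjusted p under 0.05, 0 called by DESeq2). Adam19 (3.87, SE 0.78, adjusted p = 0.00703, edgeR) and Adam22 (3.22, SE 0.81, adjusted p = 0.0233, edgeR) were called higher in medium than in ctrl, from 1, 3 and 11 counts and 1, 0 and 34 counts in ctrl. Of the 12 cathepsins and cystatins, the lysosomal proteases of macrophages and their inhibitors, none was called in any of the 7 comparisons by edgeR or DESeq2, 0 to 2 had an unadjusted p under 0.05 in each, and their median log2 fold change between 4OHT and ctrl was 0.04.

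Of 14 tested genes that activate, anchor or clear MMPs, edgeR called 0 between 4OHT and ctrl (5 at an unadjusted p under 0.05, 2 called by DESeq2). Against 4OHT+Fer1, 6 of the 14 had an unadjusted p under 0.05 and DESeq2 called 2. There edgeR called 1, higher in 4OHT. This was Thbs1, a matricellular protein that binds MMP2 and MMP9 (log2 fold change 2.47, SE 0.40, adjusted p = 0.0135, edgeR), at 76.8, 86.8 and 32.0 CPM in 4OHT and 11.0, 7.75 and 18.5 CPM in 4OHT+Fer1. Among those called in medium against ctrl were Thbs1 (1.93, SE 0.42, adjusted p = 0.0117, edgeR) and Plaur, the urokinase receptor (1.45, SE 0.38, adjusted p = 0.0318, edgeR), both higher, and Itgb3, an integrin subunit (-1.06, SE 0.31, adjusted p = 0.0491, edgeR). Plaur was at 9.78 and 8.12 CPM in medium and at 2.63, 4.93 and 3.09 CPM in ctrl. Its levels in 4OHT, at 8.01, 8.52 and 10.9 CPM, were near those in medium, though edgeR did not call it against ctrl.

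Of 10 matrix genes tested whose proteins MMPs cleave, 1 was called higher and 1 lower in 4OHT than in ctrl. Vcan, the proteoglycan versican, was at 3.44, 2.31 and 8.94 CPM in ctrl and at 22.9, 24.7 and 18.1 CPM in 4OHT, without overlap, and rose by a log2 fold change of 2.32 (SE 0.36, adjusted p = 0.0126, edgeR). It rose by 2.42 (SE 0.36, adjusted p = 0.0122, edgeR) against 4OHT+Fer1, where Col1a1 was lower (-1.14, SE 0.25, adjusted p = 0.0456, edgeR). Spp1, which encodes osteopontin, was lower in 4OHT than in ctrl (-1.81, SE 0.36, adjusted p = 0.03, edgeR). It was at 2290, 2170 and 355 CPM in ctrl and at 423, 493 and 160 CPM in 4OHT. It was thus lower in 4OHT in each replicate, although the groups overlapped. Against 4OHT+Fer1 edgeR did not call it. In medium against ctrl, 6 of the 10 were called higher and 2 lower, with Spp1 (-4.02, SE 0.47, adjusted p = 0.000216, edgeR), Vcan (1.94, SE 0.41, adjusted p = 0.00928, edgeR), Fn1 for fibronectin (1.75, SE 0.35, adjusted p = 0.00711, edgeR) and Lamb1 for a laminin chain (1.69, SE 0.45, adjusted p = 0.0331, edgeR) the largest in size.

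For the called members, the genes most alike over the 14 libraries were listed by Pearson's r of log2 CPM, as a description over libraries that share groups and replicate numbers. For Mmp13 these were Plekhg1 (r = 0.977), Itga4 (r = 0.958) and Tbc1d8 (r = 0.947). For Timp3 they were Aebp1 (r = 0.954), Irx3 (r = 0.951) and Pcolce (r = 0.946), and for Mmp9 Nat8l (r = 0.945), Ltbp2 (r = 0.931) and Smap2 (r = 0.923). Among the members themselves, Mmp9 was closest to Mmp12 (r = 0.846) and Timp3 to Mmp14 (r = 0.792), while Mmp13 was closest to Mmp14 (r = 0.54).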

How the data were processed

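The 14 pBMDM libraries were made with the Lexogen QuantSeq kit, which reads transcripts at their 3′ end. The authors aligned reads with STAR 2.7.10a and deposited estimated counts per gene from Salmon 1.5.2, without scaling. The submitters' processing notes name the builds GRCh38 and GRCm38 and the methods a human genome, while the identifiers are those of mouse genes, so coordinates are given in GRCm38. Of the deposited values 30109 were not whole, and all were rounded here, where the planned design spoke of counts. The authors' table of DESeq2 comparisons (log2 fold changes, p-values and CPM) was not used.

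Genes were kept by edgeR's filterByExpr (minimum count 10 by group, here 1.05 CPM in at least 2 libraries), normalised by TMM factors and tested in edgeR 4.0.16 (glmQLFit and glmQLFTest, R 4.3.3, two-sided), with Benjamini-Hochberg adjustment over 12851 genes. All 5 groups entered 1 fit with the replicate number as a block, since the methods put the mouse in the design. The replicate number was taken as the mouse. Deviations of same-numbered libraries from their group means had a median correlation of 0.247 (26 pairs, lowest 0.00221), against -0.139 for other pairs (52 pairs). Deviations from a group mean cancel within the group, which ties the second value to the first. The second value is therefore not a separate measure of the pairing. The labels do not say that replicates are separate animals, so p-values measure the spread between these libraries. Replicates differed by more than sampling noise (chi-square per degree of freedom 10.9 to 79.4). Floors of 3 counts cover counting error only.

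The 10 members and all gene lists were chosen with earlier results of these data known. The text names all members, every called gene of the lists (at most 4 per list and comparison, with an exception that is not reported here) and, for called members, the 3 most alike genes. Alternatives were DESeq2 1.42.0, RLE scaling, other filters, no block, only the groups compared, and replicates or single libraries left out, the last added after seeing the data. The scripts were tested on simulated data.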

Additional observations from a re-analysis of the deposited data

How the results depend on the processing

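The number of members called was 1 (4OHT against ctrl), 0 (4OHT against 4OHT+Fer1), 3 (medium against ctrl) and 1 (4OHT against medium) in edgeR with the replicate block. DESeq2 and edgeR without the filter on low counts each called 2, 5 and 2 in the last 3 of these. Shares over all genes were counted only for edgeR with the block and filter, so the counts of the other fits have none beside them. With no replicate block the counts were 0, 0, 1 (Mmp13) and 0. With only the groups compared they were 0 for 4OHT against ctrl and 2 for 4OHT against medium. With a replicate number or 1 library left out, the counts ran from 0 to 3 for 4OHT against ctrl, from 0 to 3 for 4OHT against 4OHT+Fer1, from 0 to 4 for medium against ctrl, from 0 to 2 for 4OHT against medium and from 0 to 1 (Mmp8) for the difference of the 4OHT effects. All 3 members called without replicate 3 between 4OHT and ctrl (Mmp8, Mmp13 and Mmp14) were also called without the single library 4OHT replicate 3, and none was called without replicate 1 or 2. The Mmp14 to Timp2 difference ran from -0.66 to 0.79 with a replicate left out, and that of Mmp9 to Timp1 from 0.16 to 0.83. The latter was 1.25 with 0.1 CPM and 0.04 with 2 CPM added, and 0.58 with the block (p = 0.25 in the exact permutation test, the smallest it allows).

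Directions turned for members that were not called, among them Mmp12 in medium against ctrl, whose adjusted p was 0.0191 with the block and under 0.05 in 16 of 23 alternatives. Without the block, the log2 fold change was -0.08 for Mmp12 and -0.04 for Timp2 in medium against ctrl, and 0.19 for Mmp2, 0.54 for Mmp9, 0.44 for Mmp12, 0.22 for Mmp14 and 0.03 for Timp3 in 4OHT against medium. With only the groups compared, Timp2 was at -0.26 in medium against ctrl. With libraries left out, the ranges were -0.61 to 0.44 for Mmp19 in 4OHT against ctrl, -0.53 to 1.34 for Timp1 and -0.23 to 0.33 for Timp2 in medium against ctrl, and -1.40 to 0.30 for Mmp2, -0.67 to 0.01 for Mmp14 and -0.40 to 1.25 for Timp1 in 4OHT against medium. The causes were not tested. Fits with 1 library left in a group assume that it varies like the other groups, and medium against ctrl alone leaves 1 residual degree of freedom. Depth limits Mmp2 and Mmp9, which were at or near 3 counts in several libraries.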
